A study of Homo sapiens with 18 samples.

Results

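The transcripts of 8 cytokine genes, IL10, IL23A, IL25, TNF, LTB, TGFB1, IL32 and MIF, were followed across 18 expression arrays of human cell lines exposed to graphene oxide. The genes were taken by name, as 8 of the 20041 gene symbols on the array, and every probe that carries one of these symbols was included, 13 probes in all. On GRCh38.p14, IL10 lies at chr1:206767602-206772494, IL23A at chr12:56338884-56340410, IL25 at chr14:23372809-23376403 and TNF at chr6:31575565-31578336. LTB lies beside TNF at chr6:31580558-31582425, TGFB1 at chr19:41330323-41353922, IL32 at chr16:3065403-3069530 and MIF at chr22:23894383-23895223. Jurkat is a line of leukaemic T cells and THP1 a line of leukaemic monocytes. Each line gave 3 arrays after GONH2, 3 after GO and 3 of untreated control, so that there were 6 groups. GO is graphene oxide in thin flakes, and GONH2 was made from graphene oxide by attaching amino groups to its surface through triethyleneglycol diamine. The paper reports that GONH2 sheets were thicker than GO sheets and less evenly dispersed. Effects of the amino groups and of these properties cannot be told apart here. Both materials were given at 50 µg/ml for 24 h, and the controls received 0 µg/ml. The comparisons asked whether each material changed the transcripts of a line, whether the amino groups changed that response, and whether the lines responded alike. Both lines are cultured tumour lines and stand only in part for blood T cells and monocytes. The labels name the 3 arrays of a group biological replicates without saying which culture each came from, so the p-values measure only the spread between arrays.

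Cytokines are secreted or membrane-bound proteins by which immune cells signal to each other. IL10 restrains inflammation and signals through JAK1, TYK2 and STAT3. IL23A encodes the p19 subunit, which pairs with IL12B to form interleukin 23, a cytokine that sustains interleukin 17-producing T cells. IL25 is a member of the interleukin 17 family that promotes type 2 responses. TNF, released by activated monocytes and T cells, drives NF-kappa-B signalling, and LTB anchors the lymphotoxin heterotrimer to the cell surface. TGFB1 is stored in latent form and limits T cell activation. IL32 is made by T and natural killer cells and induces other cytokines. MIF is held ready-made in many cell types and binds CD74.

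Between 15761 and 17809 probes were detected on each array, and arrays of 1 group correlated at 0.987 or more. The labels were set against the data before any comparison. In the study's own gene lists, the treated means listed for GO in monocytes equal those of the THP1 arrays labelled GONH2 and not those labelled GO, while the lists for GO in T cells equal the Jurkat arrays labelled GO. The treated means listed for GONH2 match neither treated group of either line, and the control means listed with GONH2 in T cells match no Jurkat group. The groups are therefore named here by their array labels. Every THP1 result given for 1 material depends on those labels, and only a direction shared by both treated groups does not. The T cell list held 18 measured genes. Each Jurkat group showed 6 of them on its 3 arrays, with CD3D and CD247 among those of the controls, and CD3E and CD3G were detected on 0 Jurkat arrays. THP1 showed 2, 2 and 1 of them in the groups labelled GONH2, GO and control. The summed log2 intensity of the T cell markers ran from 98.0 to 98.1 on Jurkat GONH2 arrays, from 97.7 to 101 on Jurkat GO arrays and from 98.6 to 101 on Jurkat control arrays. It was lower on THP1 arrays, at 88.1 to 88.3 for those labelled GONH2, 86.9 to 88.8 for GO and 85.9 to 87.9 for control. Between the controls, 7 of 10 tested T cell markers were called higher in Jurkat and 0 lower, where 11.1% of all tested probes were called. The Jurkat control arrays also detected 16 of 19 myeloid markers, including CD14, CSF1R and SPI1, while the THP1 control arrays detected 15 of 19. Of 17 tested myeloid markers, 8 were called lower in Jurkat control than in THP1 control and 4 higher. The mean control levels of the lines correlated at 0.977 across probes. The arrays labelled Jurkat thus carried markers of both kinds, with more T cell signal than THP1. Their identity as T cells is in doubt, and comparisons between lines below are between arrays with these labels. The sum of the myeloid markers lay at 170.3 to 170.4 on Jurkat GONH2 arrays, and ran from 174 to 176 on Jurkat GO arrays and from 171 to 172 on Jurkat control arrays. It ran from 180 to 182 on THP1 arrays labelled GONH2, from 176 to 177 on those labelled GO and from 179 to 180 on THP1 control arrays. The part of these differences in the results below was not tested. As in any bulk sample, fewer cells of a kind and less RNA per cell cannot be told apart.

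The promoters of IL10, IL23A and LTB are shown because their transcripts differed between treated and control arrays. RefSeq starts on GRCh38.p14 were matched for 7 of the 8 genes, all but IL25. Each run covers 250 bases before the transcript start and 50 after it, 5′ to 3′ on the strand of the gene. The IL10 promoter lies at chr1:206772445-206772744 on the minus strand, that of IL23A at chr12:56338634-56338933 on the plus strand and that of LTB at chr6:31582376-31582675 on the minus strand. Capitals mark matches, on either strand, to the TATA box TATAAA, the AP-1 motif TGANTCA, the STAT motif TTCNNNGAA and the NF-kappa-B consensus.
IL10: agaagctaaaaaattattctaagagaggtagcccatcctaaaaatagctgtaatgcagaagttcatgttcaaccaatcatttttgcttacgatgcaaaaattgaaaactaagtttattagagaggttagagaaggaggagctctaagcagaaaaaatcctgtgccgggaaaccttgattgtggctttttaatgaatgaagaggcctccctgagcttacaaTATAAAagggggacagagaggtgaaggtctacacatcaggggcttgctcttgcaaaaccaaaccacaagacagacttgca
IL23A: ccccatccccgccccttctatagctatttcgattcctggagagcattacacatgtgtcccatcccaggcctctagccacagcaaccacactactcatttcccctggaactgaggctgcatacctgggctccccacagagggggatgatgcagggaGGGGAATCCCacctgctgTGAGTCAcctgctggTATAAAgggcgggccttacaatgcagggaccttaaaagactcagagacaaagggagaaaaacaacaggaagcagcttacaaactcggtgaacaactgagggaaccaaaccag
LTB: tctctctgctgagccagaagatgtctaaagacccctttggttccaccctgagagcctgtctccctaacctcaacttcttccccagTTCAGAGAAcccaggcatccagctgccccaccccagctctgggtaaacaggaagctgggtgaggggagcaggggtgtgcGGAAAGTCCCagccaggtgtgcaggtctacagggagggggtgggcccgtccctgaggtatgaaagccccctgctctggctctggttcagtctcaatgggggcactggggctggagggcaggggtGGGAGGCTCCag
The IL10 run held a TATA box at -30 and no other match. The IL23A run held an NF-kappa-B match at -95, an AP-1 match at -77 and a TATA box at -62, with no overlap between them. The LTB run held a STAT match at -165, an NF-kappa-B match on the opposite strand at -86 and a second one at 39, and no TATA box. Of 35116 promoters of this length, 11.5% held the TATA box, 7.71% the AP-1 motif, 7.66% the STAT motif and 11.3% the NF-kappa-B consensus, so a match is common and describes only the letters.

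Transcripts of 6 of the 8 genes were measurable. A probe was counted as detected on an array when its detection p, from the comparison with negative control probes, was under 0.01, and it was tested when detected on at least 3 arrays. By this rule 7 of the 13 probes and 19455 of all 47217 probes were tested. TGFB1 (1 probe) and IL32 (2 probes) were detected on 0 of 18 arrays, with lowest detection p of 0.153 for TGFB1 and of 0.118 and 0.0455 for the IL32 probes. Their transcripts were not well above background in any group, and no fold is given. IL10, IL23A, IL25, TNF, LTB and MIF each had 1 probe detected on all 18 arrays, and these probes stand for the genes below.

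**Figure D1:**
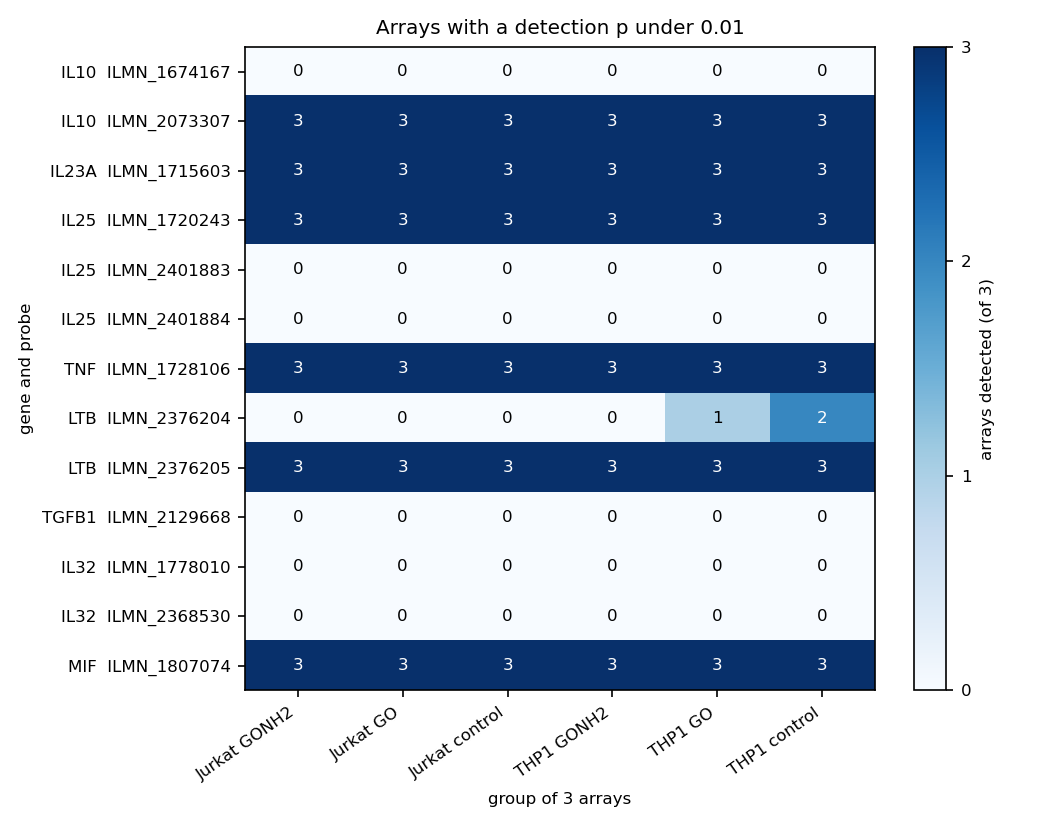
Number of arrays (0 to 3) on which each of the 13 probes had a detection p under 0.01, with genes and probes down the page and the 6 groups of 3 arrays across. Of the probes, 6 were detected on all 18 arrays, the second LTB probe on 3 arrays and the other 6 on none.

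The probes of a gene did not always give the same picture. For IL10, probe ILMN_2073307 had non-normalized intensities between 3399 and 9349, and the other probe, ILMN_1674167, lay between 87.8 and 136 and was detected on 0 of 18 arrays. Both are annotated to the same transcript. All IL10 values below therefore rest on 1 of 2 probes that disagree. For IL25, the probe ILMN_1720243 was detected on 18 arrays, and 2 probes annotated to another transcript of the gene were detected on 0. The second LTB probe, ILMN_2376204, was detected on 2 THP1 control arrays and 1 THP1 array labelled GO.

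The 6 measured genes did not move as a group. Levels are given as log2 intensities after background correction and quantile normalization. A transcript was called when limma's moderated test gave a p under 0.001 and a Benjamini-Hochberg adjusted p under 0.05 over all tested probes. In Jurkat, GO against control called 3 of the 6 genes, IL10 higher and IL23A and IL25 lower, where 25.1% of all tested probes were called. The arrays of the groups did not overlap for 4 genes, against 56.6% of all probes. GONH2 against control in Jurkat called 0 of the 6, where 0.812% of all probes were called, and 1 gene, TNF, had an unadjusted p under 0.05. The count was also 0 with limma-trend and with the random variance test, where 848 and 162 of all 19455 tested probes were called. The groups did not overlap for TNF and MIF, 2 genes, against 26% of all probes. GONH2 against GO in Jurkat called 3 genes, with IL10 lower and IL23A and IL25 higher, beside 24.1% of all probes, and 4 genes had groups that did not overlap, beside 55.9%.

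In THP1, the arrays labelled GONH2 against control called 2 genes, IL10 higher and LTB lower, where 19.9% of all probes were called. The groups did not overlap for 5 genes, against 53.3% of all probes. The arrays labelled GO against control called 3 genes, IL23A and IL25 higher and LTB lower, where 7.93% of all probes were called, and 3 genes did not overlap, against 41.6%. GONH2 against GO called 3 genes, IL10 higher and IL23A and IL25 lower, beside 28% of all probes, and 5 genes did not overlap, beside 59.7%. Comparisons within a line share their control or treated arrays. The median log2 fold change of the 6 genes was -0.26 for GONH2 against control in THP1 and between 0.09 and 0.13 in the other 3 comparisons with control, and that of all tested probes ran from -0.01 to 0.06. Members were therefore described one by one.

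**Figure D2:**
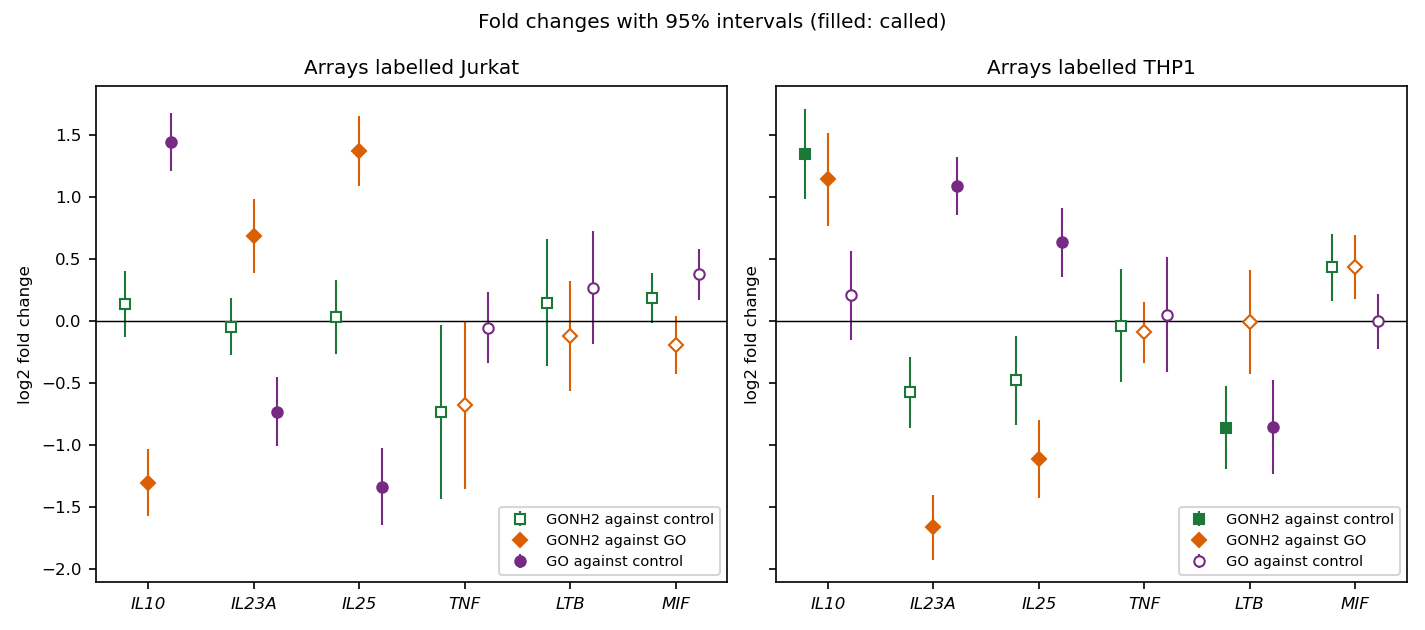
Log2 fold changes of the 6 measured genes with 95% intervals of the fit, for GONH2 against control (squares), GONH2 against GO (diamonds) and GO against control (circles), with Jurkat on the left and THP1 on the right; filled symbols were called. In Jurkat the GO circles lie at 1.44 for IL10 and -1.34 for IL25 while the GONH2 squares lie at 0.14 and 0.03; in THP1 the IL10 square lies at 1.35 and the IL23A circle at 1.09.

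IL10 was higher in one treated group of each line. In Jurkat it measured 12.06, 12.38 and 12.24 on GONH2 arrays, 13.47, 13.56 and 13.56 on GO arrays and 11.97, 12.18 and 12.11 on control arrays. The GO arrays all lay above the rest and the GONH2 arrays overlapped the controls. IL10 rose by 1.44 ± 0.10 (SE) with GO, 2.72-fold (adjusted p = 3.44e-05), against a difference of 0.14 ± 0.11 with GONH2 (adjusted p = 0.552, 95% interval -0.12 to 0.40). GONH2 arrays lay below GO arrays by -1.30 ± 0.12 (adjusted p = 8.2e-05). In THP1 it measured 13.01, 13.44 and 13.12 on arrays labelled GONH2, 11.77, 12.18 and 12.19 on arrays labelled GO and 11.62, 11.93 and 11.98 on control arrays. Here the arrays labelled GONH2 stood apart. IL10 rose by 1.35 ± 0.16 there, 2.55-fold (adjusted p = 0.000438), and differed by 0.21 ± 0.16 on the arrays labelled GO (adjusted p = 0.382). GONH2 exceeded GO by 1.14 ± 0.17 (adjusted p = 0.00065).

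The 2 groups with high IL10, Jurkat GO and THP1 labelled GONH2, did not overlap each other after quantile normalization. Their means were 13.53 ± 0.05 and 13.19 ± 0.22 (SD, n = 3 arrays each). Below them, Jurkat GONH2, Jurkat control, THP1 labelled GO and THP1 control followed at 12.23, 12.09, 12.05 and 11.84, and neighbours in this order overlapped. Against control, the non-normalized intensity pointed the same way. It ran from 5975 to 9349 on Jurkat GO arrays against 4322 to 5778 on Jurkat control arrays. On THP1 arrays labelled GONH2 it ran from 6902 to 8443, against 3489 to 6021 on THP1 control arrays. Between Jurkat GO and THP1 labelled GONH2 it overlapped, with means of 7394 and 7705 in the reverse order, and no fit compared these 2 groups. The GO response differed between the lines by 1.24 ± 0.19 (Jurkat minus THP1, adjusted p = 0.000237) and the GONH2 response by -1.21 ± 0.20 (adjusted p = 0.000759). With each array scaled to its median in place of quantile normalization, the IL10 difference was 0.71 in Jurkat GO, -0.68 for GONH2 against GO in Jurkat, and 0.85 and -0.79 for the GO and GONH2 differences between lines, and these 4 were no longer called.

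**Figure D3:**
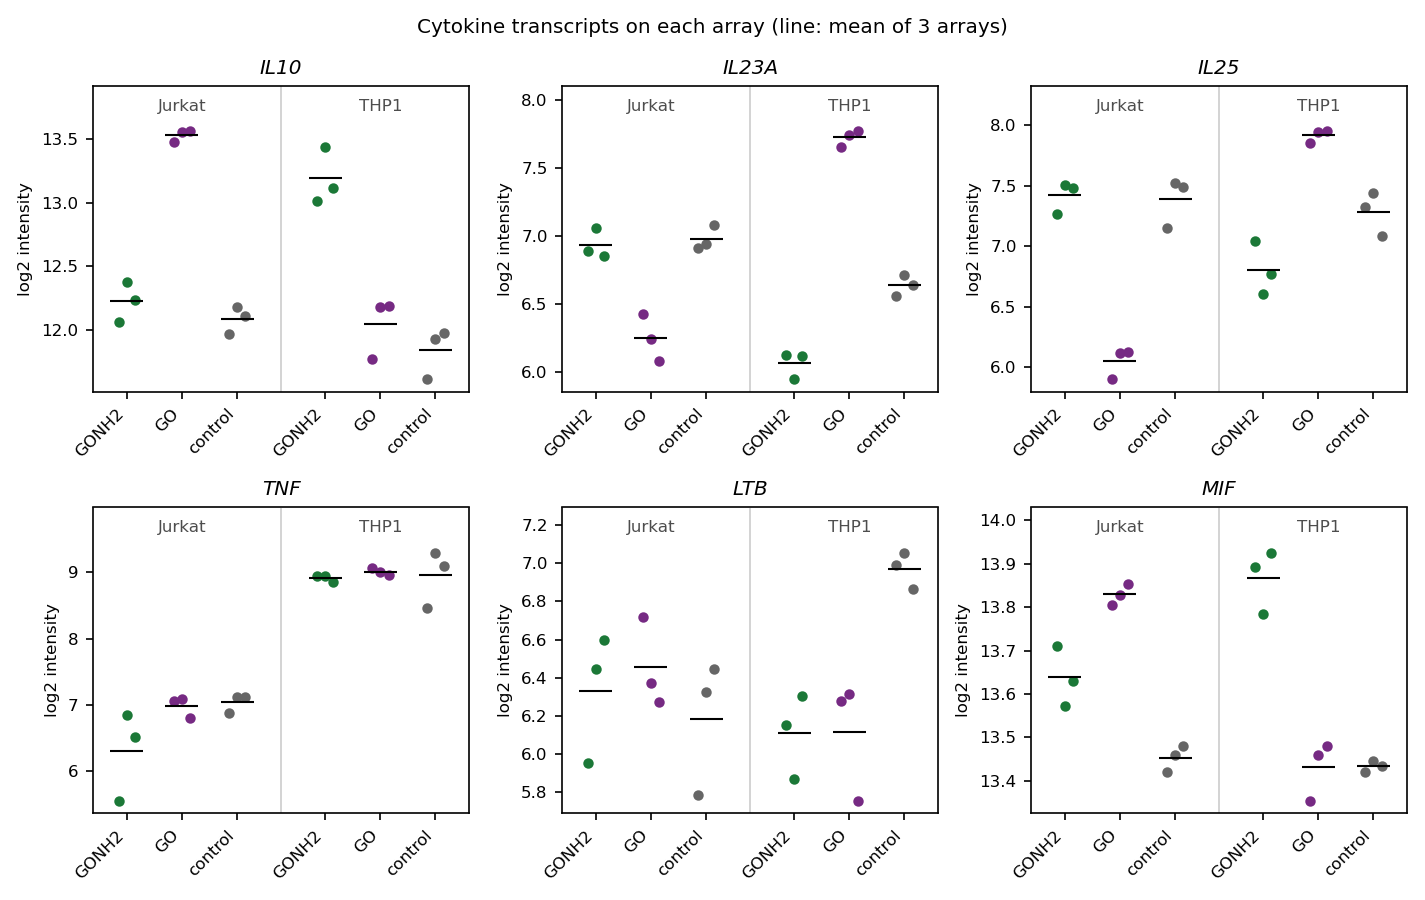
Log2 intensity of the 6 measured genes on each of the 18 arrays (points) with the mean of 3 arrays (line), in the order GONH2, GO, control for Jurkat and then THP1; the vertical scales differ between panels. IL10 is high on Jurkat GO arrays (13.47 to 13.56) and on THP1 arrays labelled GONH2 (13.01 to 13.44), where IL23A and IL25 are low.

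IL23A, the p19 subunit, was called lower in Jurkat GO and higher in THP1 labelled GO. In Jurkat it measured 6.89, 7.06 and 6.85 on GONH2 arrays, 6.42, 6.24 and 6.08 on GO arrays and 6.91, 6.94 and 7.08 on control arrays. Only the GO arrays lay apart, below the others. IL23A fell by 0.73 ± 0.12 with GO (adjusted p = 0.00173), and differed by -0.04 ± 0.10 with GONH2 (adjusted p = 0.848). GONH2 exceeded GO by 0.69 ± 0.13 (adjusted p = 0.00294). Both calls were lost without most single arrays, while the differences kept their direction. Leaving out 1 array also lowered the calls over all probes. They fell from 4890 to between 3441 and 4089 for GO, and from 4689 to between 3290 and 3931 for GONH2 against GO. The GO call was kept without GO replicate 1, at -0.82, and was lost without each of the other 5 arrays, at -0.65 to -0.76 (adjusted p of 0.00562 to 0.00927), since the p then passed 0.001. The call of GONH2 against GO was likewise kept without GO replicate 1, at 0.78, and lost without each of the other 5, at 0.60 to 0.73.

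In THP1, IL23A measured 6.12, 5.95 and 6.12 on arrays labelled GONH2, 7.66, 7.75 and 7.77 on arrays labelled GO and 6.56, 6.71 and 6.64 on control arrays. The 3 groups were fully apart, with the controls between. IL23A rose by 1.09 ± 0.10 on the arrays labelled GO, 2.13-fold (adjusted p = 0.00111), and lay at -0.58 ± 0.13 on those labelled GONH2, which was not called (adjusted p = 0.00597) since its p passed 0.001. GONH2 against GO gave -1.66 ± 0.11 (adjusted p = 5.8e-05), a ratio of 0.316. The GO response differed between the lines by -1.82 ± 0.15 (Jurkat minus THP1, adjusted p = 2.29e-06). The difference of the GONH2 responses, 0.53 ± 0.15, was not called (adjusted p = 0.0139). IL12B, the partner that completes interleukin 23, and EBI3, a related subunit of interleukins 27 and 35, were detected on 0 of 18 arrays, as was the receptor chain IL23R. The IL23A signal was dim, with non-normalized intensities of 133 to 338 over all arrays, and its fold sizes shrank without background correction. They were then -0.36 in Jurkat GO and 0.64 in THP1 labelled GO, both still called.

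IL25 behaved much like IL23A on these arrays. In Jurkat it measured 7.27, 7.51 and 7.48 on GONH2 arrays, 5.90, 6.12 and 6.13 on GO arrays and 7.15, 7.52 and 7.49 on control arrays. The GO arrays lay below all others. IL25 fell by 1.34 ± 0.13 with GO, a ratio of 0.396 (adjusted p = 0.000167), and differed by 0.03 ± 0.13 with GONH2 (adjusted p = 0.918). GONH2 exceeded GO by 1.37 ± 0.12 (adjusted p = 7.6e-05). In THP1 it measured 7.04, 6.61 and 6.77 on arrays labelled GONH2, 7.85, 7.95 and 7.95 on arrays labelled GO and 7.32, 7.44 and 7.08 on control arrays. Again the controls lay between the treated groups, though the gap to GONH2 was narrow. IL25 rose by 0.63 ± 0.12 on the arrays labelled GO (adjusted p = 0.0114), and lay at -0.48 ± 0.16 on those labelled GONH2, which was not called (adjusted p = 0.0381). The GO call was kept without THP1 control replicate 2, at 0.71, and lost without each of the other 5 arrays, at 0.53 to 0.67. With median scaling the GO difference was 0.35 and not called (adjusted p = 0.311). GONH2 against GO gave -1.11 ± 0.14 (adjusted p = 0.000341). Without background correction the differences were -0.68 in Jurkat GO, 0.42 in THP1 labelled GO and -0.68 for GONH2 against GO in THP1, all still called. The GO responses of the lines differed by -1.97 ± 0.18 (Jurkat minus THP1, adjusted p = 5.15e-06). IL17RB, the chain that binds IL25, was detected on 0 of 18 arrays, and its partner IL17RA on 18, at 0.78 ± 0.10 for GO against control in Jurkat (adjusted p = 0.000564, called).

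TNF separated the lines and was called for no treatment. It measured 5.56, 6.85 and 6.52 on Jurkat GONH2 arrays, 7.07, 7.09 and 6.81 on Jurkat GO arrays and 6.88, 7.13 and 7.12 on Jurkat control arrays. GONH2 replicate 1 was the lowest of all arrays. GONH2 against control gave -0.73 ± 0.30, which did not pass the adjustment (adjusted p = 0.25), and without GONH2 replicate 1 the difference was -0.36. In THP1 it measured 8.94, 8.94 and 8.86 on arrays labelled GONH2, 9.06, 9.00 and 8.96 on arrays labelled GO and 8.47, 9.29 and 9.10 on control arrays. The control arrays spread more widely than the treated ones and enclosed them. GONH2 against control gave -0.04 (95% interval -0.49 to 0.42) and GO against control 0.05 (95% interval -0.41 to 0.52), so changes inside these bounds are not excluded. The bounds do not give the smallest change that could be called at a p under 0.001 with 3 arrays a group. Every THP1 array exceeded every Jurkat array. Of the 6 genes, TNF was the 1 called between the controls, at -1.91 ± 0.21 for Jurkat control against THP1 control (adjusted p = 0.000686), where 11.1% of all tested probes were called. The control arrays of the lines did not overlap for 3 genes, TNF, IL23A and LTB, against 44.3% of all probes.

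LTB was lower in both treated groups of THP1. It measured 6.16, 5.87 and 6.31 on arrays labelled GONH2, 6.28, 6.31 and 5.76 on arrays labelled GO and 6.99, 7.06 and 6.86 on control arrays. All 6 treated arrays lay below the 3 controls, and the treated groups overlapped each other. LTB fell by 0.86 ± 0.15 on the arrays labelled GONH2 (adjusted p = 0.00189) and by 0.85 ± 0.16 on those labelled GO (adjusted p = 0.0112), and GONH2 against GO gave -0.01 (95% interval -0.42 to 0.41). These calls too were lost without some single arrays, while the differences kept their direction. Leaving out 1 array also lowered the calls over all probes. They fell from 3866 to between 2524 and 3065 for GONH2, and from 1543 to between 814 and 1073 for GO. The GONH2 call was lost without THP1 control replicate 1, at -0.85, or without replicate 2, at -0.82. The GO call was kept without GO replicate 3, at -0.67, and lost without each of the other 5 arrays, at -0.81 to -0.95. The dimmer probe of LTB was called in neither comparison, and with 0 arrays labelled GONH2, 1 labelled GO and 2 control arrays detected, no fold is given for it. Without background correction the brighter probe gave -0.41 for both materials, still called.

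In Jurkat, LTB measured 5.96, 6.44 and 6.60 on GONH2 arrays, 6.72, 6.37 and 6.27 on GO arrays and 5.79, 6.32 and 6.45 on control arrays. All 3 groups overlapped. GONH2 against control gave 0.15 ± 0.22 (adjusted p = 0.765) and GO against control 0.27 ± 0.20 (adjusted p = 0.299). The responses of the lines differed by 1.12 ± 0.27 for GO (adjusted p = 0.00544) and by 1.01 ± 0.28 for GONH2 (adjusted p = 0.0126), and neither was called at a p under 0.001. LTA, which completes the heterotrimer with LTB, was detected on 14 of 18 arrays and called in no comparison with control, with log2 differences of 0.13 to 0.25.

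MIF gave bright signals on every array and small differences, some of which changed direction with median scaling. In Jurkat it measured 13.71, 13.57 and 13.63 on GONH2 arrays, 13.81, 13.83 and 13.85 on GO arrays and 13.42, 13.46 and 13.48 on control arrays. In THP1 it measured 13.89, 13.78 and 13.93 on arrays labelled GONH2, 13.35, 13.46 and 13.48 on arrays labelled GO and 13.42, 13.44 and 13.43 on control arrays. Jurkat GO, Jurkat GONH2 and THP1 labelled GONH2 lay above their controls without overlap after quantile normalization. The differences were 0.38 ± 0.09 for Jurkat GO (adjusted p = 0.00934), 0.19 ± 0.09 for Jurkat GONH2 (adjusted p = 0.295) and 0.43 ± 0.12 for THP1 labelled GONH2 (adjusted p = 0.0171), and none was called. The non-normalized intensity ran the other way in Jurkat GO, from 7158 to 11295 on GO arrays against 11609 to 14025 on control arrays. Over 14 further settings, the difference in Jurkat GO was called higher in 6 and that in THP1 labelled GONH2 in 4. Only settings that changed the background correction or normalization could move these differences, since the others reused the same values. Among them, median scaling alone turned the differences, to -0.35 and -0.11, neither called. No direction is therefore given for MIF in these 2 groups. In Jurkat GONH2 the difference stayed positive under each change of background correction or normalization, at 0.11 to 0.21. It was called in 0 of the 14 settings. DDT, its paralogue, was called lower in Jurkat GO, at -1.02 ± 0.11 (adjusted p = 0.000226), and stayed lower there with median scaling, at -1.53.

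**Figure D4:**
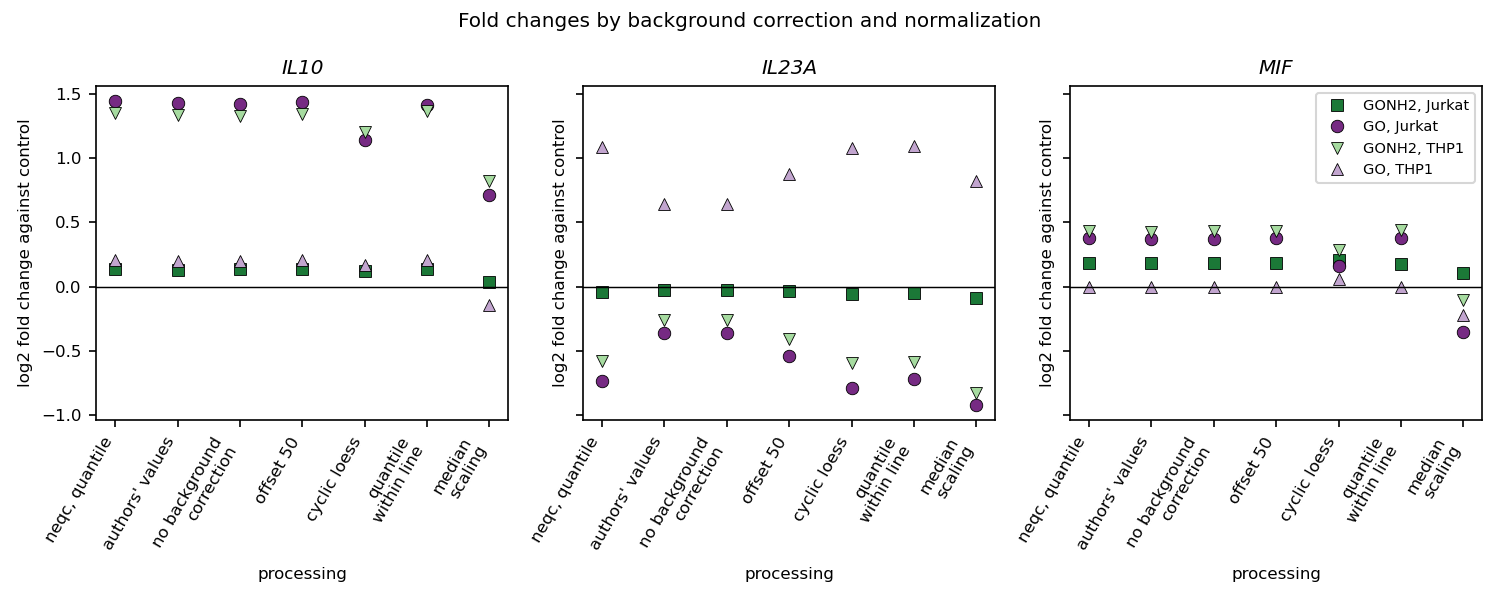
Log2 fold changes against control of IL10, IL23A and MIF under 7 ways of background correction and normalization, for GONH2 and GO in Jurkat and THP1. IL10 in Jurkat GO lies at 1.44 with the values reported here and 0.71 with median scaling, and MIF changes sign with median scaling, at -0.35 in Jurkat GO.

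The responses of the lines differed for 3 of the 6 genes under GO, IL10, IL23A and IL25, where 24.5% of all tested probes were called. They differed for 1 gene under GONH2, IL10, where 18.6% were called. If the THP1 labels of GO and GONH2 were exchanged, the count for GO would be 0, where 0.571% of all tested probes would be called. That for GONH2 would be 1, IL23A, at -1.13, where 5.51% would be called.

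The genes around the members were grouped in 8 lists. Their counts stand beside the shares of all tested probes called against control, 0.812% in Jurkat GONH2, 25.1% in Jurkat GO, 19.9% in THP1 labelled GONH2 and 7.93% in THP1 labelled GO, and several lists lay near or below these shares. These shares do not apply to the counts at an unadjusted p under 0.05. No share of all probes is given for those counts, so no excess is read from them. Of 19 receptor genes, 15 were tested. In Jurkat GO, 7 were called higher and 1 lower, with a median of 0.59 beside 0.06 for all tested probes. TNFRSF1B, the inducible receptor of TNF, rose by 1.08 ± 0.14 (adjusted p = 0.000644), and ACVRL1, a receptor of the TGF-beta family, rose by 1.03 ± 0.11. CD74, the receptor of MIF, rose by 0.84 ± 0.11, and CXCR4, a chemokine receptor that also binds MIF, fell by 0.87 ± 0.13. IL10RB, the second chain of the IL10 receptor, was called at 0.71 ± 0.11. In Jurkat GONH2, limma called 0 of 15, with 4 at an unadjusted p under 0.05. In THP1 labelled GONH2, 3 were called higher and 1 lower: CD74 rose by 1.42 ± 0.15, ENG, a TGF-beta co-receptor, rose by 1.05 ± 0.17, CD44, the signalling partner of CD74, rose by 0.91 ± 0.15 and CXCR4 fell by 1.04 ± 0.17. In THP1 labelled GO, 2 were called higher, CD44 at 1.98 ± 0.13 and CD74 at 0.77 ± 0.12. TNFRSF1A, the constitutive receptor of TNF, was called in no comparison with control, at 0.42 ± 0.11 in Jurkat GO (adjusted p = 0.0133). IL10RA was detected on 3 of 18 arrays and not called. With median scaling, an alternative chosen for the lists after the data were seen, the receptor counts in Jurkat GO were 1 higher and 1 lower, TNFRSF1B at 0.81 and CXCR4 at -1.10. They were then 1 higher and 1 lower in THP1 labelled GONH2 and 1 higher and 3 lower in THP1 labelled GO, so the balance toward higher calls depended on the scaling.

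Of 19 partners and processing factors, 12 were tested. In Jurkat GO, 5 were called higher and 1 lower, with a median of 0.38. RHBDF2, which brings the TNF-cleaving protease to the cell surface, rose by 1.40 ± 0.10 (adjusted p = 4.21e-05), and LTBP4 and NRROS, which hold latent TGF-beta, rose by 1.15 ± 0.22 and 1.01 ± 0.12. The 1 called lower was DDT. In THP1 labelled GONH2, 3 were called higher and 0 lower, LTBP4 at 1.25 ± 0.13, RHBDF2 at 1.24 ± 0.16 and NRROS at 1.23 ± 0.14. In THP1 labelled GO, 1 was called, PRTN3, a neutrophil protease that can cleave TNF, at -0.84 ± 0.10. In Jurkat GONH2, limma called 0 of 12, with 3 at an unadjusted p under 0.05. With median scaling the counts were 2 higher and 1 lower in Jurkat GO, 3 higher and 1 lower in THP1 labelled GONH2 and 0 higher and 2 lower in THP1 labelled GO. RHBDF2 kept its call in Jurkat GO, at 1.11, and in THP1 labelled GONH2, at 0.94.

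Signalling genes downstream of the members came next. Of 12 tested genes of IL10 and IL23 signalling, 2 were called higher in Jurkat GO, STAT3, the main transducer of both cytokines, at 0.90 ± 0.10 and the kinase TYK2 at 0.69 ± 0.11. The same 2 were called in THP1 labelled GONH2, at 0.78 ± 0.14 and 0.73 ± 0.13, and limma called 0 in THP1 labelled GO and in Jurkat GONH2, with 4 and 1 at an unadjusted p under 0.05. With median scaling neither was called, at 0.60 for STAT3 in Jurkat GO (adjusted p = 0.0319). Of 27 tested genes of TNF and lymphotoxin signalling, 5 were called higher and 0 lower in Jurkat GO, where 25.1% of all probes were called. TNFAIP3, the NF-kappa-B-induced inhibitor of the pathway, rose by 1.15 ± 0.18, and RBCK1, RNF31 and SHARPIN, the subunits of the linear ubiquitin ligase, rose by 1.07 ± 0.14, 0.96 ± 0.13 and 0.67 ± 0.12. In THP1 labelled GONH2, 3 were called higher and 1 lower, with RELB at 1.04 ± 0.14, RNF31 at 0.96 ± 0.15, RBCK1 at 0.92 ± 0.13 and BIRC2, an antagonist of cell death, at -0.72 ± 0.15. In THP1 labelled GO, 2 were called higher and 2 lower, with TNFAIP3 at 1.33 ± 0.20, RBCK1 at 0.68 ± 0.11 and the inhibitors NFKBIB and NFKBIE at -0.90 ± 0.13 and -0.69 ± 0.12. With median scaling the counts were 1 higher and 1 lower in Jurkat GO, 1 higher and 3 lower in THP1 labelled GONH2 and 1 higher and 4 lower in THP1 labelled GO. TNFAIP3 stayed called in Jurkat GO, at 0.92, and in THP1 labelled GO, at 1.08.

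Of 14 tested genes of TGF-beta signalling, 3 were called higher and 1 lower in Jurkat GO. TGFB1I1, a TGF-beta-induced adaptor, rose by 1.93 ± 0.12 (adjusted p = 2.13e-05), TGFBI, a secreted target, rose by 0.73 ± 0.10, SMAD3, a transducer, rose by 0.70 ± 0.12, and the decoy receptor BAMBI fell by 0.62 ± 0.11. In THP1 labelled GONH2, TGFB1I1 and SMAD3 were called at 1.11 ± 0.14 and 0.84 ± 0.13 and the inhibitor SMAD7 at -0.84 ± 0.17. In THP1 labelled GO, 3 were called higher, SMAD3 at 1.32 ± 0.14, the inhibitor SMAD6 at 0.97 ± 0.11 and the ligase SMURF1 at 0.74 ± 0.14. With median scaling the counts were 1 higher and 1 lower in Jurkat GO, 1 higher and 2 lower in THP1 labelled GONH2 and 1 higher and 1 lower in THP1 labelled GO, and TGFB1I1 stayed called in Jurkat GO, at 1.71. In Jurkat GONH2 limma called 0 genes of the TNF and TGF-beta signalling lists, with 11 of 27 and 6 of 14 at an unadjusted p under 0.05.

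Other cytokines were mostly not detected. Of 35 other interleukins, 6 were tested. IL18, an inflammasome product, rose by 1.20 ± 0.10 in Jurkat GO (adjusted p = 7.71e-05) and by 1.11 ± 0.17 in THP1 labelled GONH2. IL1B, the other major inflammasome product, rose by 0.91 ± 0.10 in Jurkat GONH2 (adjusted p = 0.0284), the 1 gene of all 8 lists called there. It stayed called there with median scaling, at 0.87, while IL18 lost its calls, at 0.60 in both Jurkat GO and THP1 labelled GONH2. Without any 1 array, only 2 to 4 of all tested probes were called in Jurkat GONH2, beside 158 with all arrays. Whether IL1B was among them was not followed. Of 16 other ligands of the TNF superfamily, 7 were tested. TNFSF14, a ligand of the LTB receptor, rose by 1.35 ± 0.10 in Jurkat GO and by 1.10 ± 0.15 in THP1 labelled GONH2, and TNFSF15 rose by 0.81 ± 0.15 in Jurkat GO. TNFSF10, the death ligand TRAIL, was not well above background on the THP1 arrays labelled GONH2 and was at least 1.79-fold lower there (adjusted p = 0.00354), a bound that takes the lowest signal well above background on each of these arrays. TNFSF13B, a survival factor of B cells, fell by 1.16 ± 0.13 in THP1 labelled GO. With median scaling TNFSF14 kept its call in Jurkat GO, at 0.96, and lost it in THP1 labelled GONH2, at 0.73, and TNFSF15 lost its call, at 0.55. Of 30 genes of the TGF-beta family and other cytokines, 11 were tested. BMP8B was called higher in Jurkat GO, at 0.74 ± 0.11, in THP1 labelled GONH2, at 1.02 ± 0.14, and in THP1 labelled GO, at 0.61 ± 0.11. VEGFA, the vascular growth factor, rose by 1.01 ± 0.10 in THP1 labelled GO, and SPP1, osteopontin, fell by 1.01 ± 0.15 in THP1 labelled GONH2. With median scaling all 3 BMP8B calls were lost, at 0.43, 0.63 and 0.27 in that order, and so was the VEGFA call, at 0.69, while SPP1 kept its call, at -1.27.

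**Figure D5:**
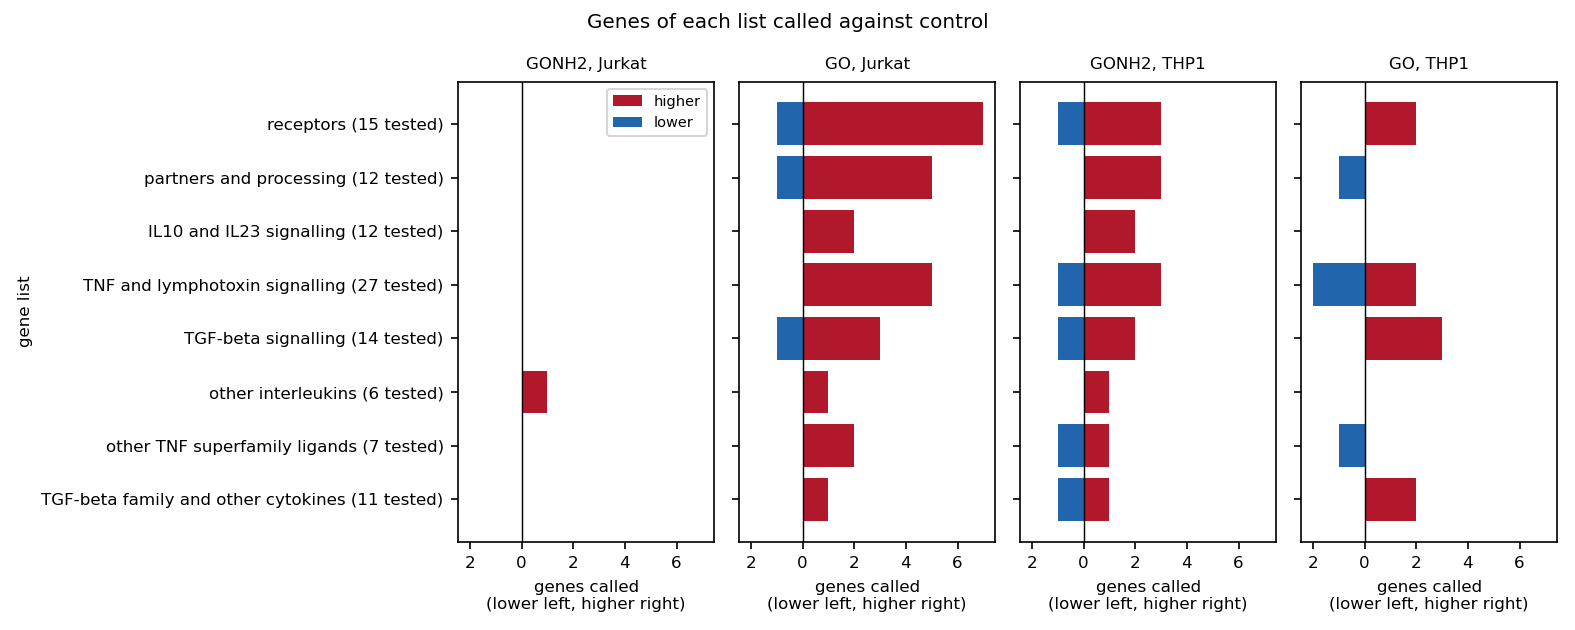
Number of genes of each of the 8 lists called higher (right of 0) or lower (left of 0) against control, for GONH2 and GO in Jurkat and then in THP1, with the number of tested genes beside each list name. Jurkat GO has 7 receptors called higher and 1 lower, and Jurkat GONH2 has 1 gene called in all lists.

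Across the 18 arrays IL23A and IL25 ran together (Pearson r = 0.83), and IL10 ran against IL25 (r = -0.84) and IL23A (r = -0.69). With median scaling, an alternative chosen after the data were seen, these were 0.86, -0.64 and -0.65. IL10 and MIF had an r of 0.89 after quantile normalization and of -0.056 with median scaling, so no pattern is read from MIF. TNF and LTB correlated with no other member beyond 0.26 in size, and beyond 0.52 with median scaling. These values describe 18 arrays of 6 groups, which share their normalization and carry the differences between groups. Of 11129 other genes, the most like IL10 were SLC44A4 (r = 0.99), PPA2 (0.99) and EIF2AK4 (0.99). For MIF they were ARAF (0.95), ARFGAP2 (0.94) and TRRAP (0.94), which with median scaling had an r of -0.18, 0.071 and 0.13. The most like IL23A were SNX5 (0.96), DDIT3 (0.96) and LIAS (0.96), and the most like IL25 were HINT2 (0.96), CCDC12 (0.95) and RPL12 (0.95). TNF, which follows the line, was most like CORO2A (0.96), CD93 (0.96) and TLE4 (0.96). The nearest genes to LTB were farther off, APMAP (0.77), VPS35 (0.73) and TBC1D7 (0.72).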

How the data were processed

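RNA of 18 samples was hybridized to Illumina HumanHT-12 v4 arrays, 3 per group. The intensities in the first table, as deposited by the authors, are linear probe signals that were not normalized, and the detection p-values in that table, as deposited, compare each probe with negative controls. A second deposited table of intensities, normalized by the authors, served as an alternative. In limma 3.58.1 under R 4.3.3, signals were background corrected (neqc, offset 16, background inferred from the detection p-values), quantile normalized over 18 arrays and put on the log2 scale. Tests took in each probe detected (p under 0.01) on 3 or more arrays, in fits of the 2 groups compared (6 arrays) or with an interaction term. A call required p below 0.001 together with a Benjamini-Hochberg value below 0.05. A gene is represented by its brightest tested probe, and fold changes carry standard errors of the fit. Gene symbols came from the platform annotation: 30106 probes carried 1 symbol, 8 several and 17103 none. Median signals ran from 103 to 150 per array, and the number of arrays limits the precision. Fits were tested on simulated data. Alternatives covered background, scaling, filter, test, block and single arrays. List genes are named if among the up to 4 called with the widest change per list and comparison with control; IL10RB, IL17RA, IL17RB and IL23R were added after their values were seen. The members and lists were chosen with earlier results of these data known.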

Additional observations from a re-analysis of the deposited data

Results flagged for a closer look

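The response differed between the lines, by the interaction term, for 4 results. For GO, the Jurkat response minus the THP1 response was 1.24 ± 0.19 (SE) for IL10 (adjusted p = 0.000237), -1.82 ± 0.15 for IL23A (adjusted p = 2.29e-06) and -1.97 ± 0.18 for IL25 (adjusted p = 5.15e-06). IL10 rose in Jurkat and was not called in THP1, while IL23A and IL25 fell in Jurkat and rose in THP1. For GONH2 the difference was -1.21 ± 0.20 for IL10 (adjusted p = 0.000759), which rose in THP1 and was not called in Jurkat. With the THP1 labels of GO and GONH2 exchanged, the GO differences were 0.09 for IL10, -0.16 for IL23A and -0.86 for IL25, and the GONH2 difference for IL10 was -0.07. None of these 4 was then called. With median scaling the IL10 differences were 0.85 for GO and -0.79 for GONH2, and neither was called.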

How the results depend on the processing

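Results were recomputed under 14 further settings, with the THP1 labels exchanged and without each array in turn. Of 744 values, those without an array or with exchanged labels aside, 677 kept direction and side of the threshold, 43 became called, 8 lost a call and 16 changed sign. The cause of these changes was not tested in any case. Settings that changed only the filter, test, block or threshold kept the reported fold changes, so no sign could change under them. Adjusted p alone could only add calls. With each array scaled to its median, IL10 lost its call in Jurkat GO (0.71, adjusted p = 0.00877), for GONH2 against GO in Jurkat (-0.68) and in both differences between lines (0.85 for GO, -0.79 for GONH2), as did IL25 in THP1 labelled GO (0.35). The sign then changed for MIF in Jurkat GO (-0.35), THP1 labelled GONH2 (-0.11), GONH2 against GO in Jurkat (0.46), the controls (-0.14) and the GO and GONH2 differences between lines (-0.13, 0.21). It also changed for IL25 in Jurkat GONH2 (-0.00315) and the controls (-0.042), IL10 in THP1 labelled GO (-0.14), TNF there (-0.29) and in the GO difference between lines (0.00551), and LTB for GONH2 against GO in Jurkat (0.046). Cyclic loess turned MIF in THP1 labelled GO (0.057), for GONH2 against GO in Jurkat (0.047) and between controls (-0.021), and quantile normalization within each line turned MIF between controls (-0.16). All of these sign changes concern results that were not called.

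Median scaling moved the median of all tested probes to -0.13 in Jurkat GO, against 0.06 with quantile normalization, to -0.23 against -0.00 in THP1 labelled GO and to -0.19 against 0.05 in THP1 labelled GONH2. Calls over all probes were then 585 higher and 3129 lower in Jurkat GO, beside 2497 and 2393 with quantile normalization, 235 and 1673 beside 786 and 757 in THP1 labelled GO, and 460 and 3394 beside 1925 and 1941 in THP1 labelled GONH2. For GONH2 against GO in Jurkat they were 2677 and 608 beside 2286 and 2403, for the controls 590 and 1045 beside 1141 and 1027, and for the GONH2 difference between lines 1938 and 234 beside 1762 and 1853.

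With the THP1 labels exchanged, the THP1 values against control were those of the other material: for GO, IL23A -0.58, IL25 -0.48, TNF -0.039 and MIF 0.43, and for GONH2, IL23A 1.09, IL25 0.63, TNF 0.052, MIF -0.00246 and IL10 0.21. GONH2 against GO became -1.14 for IL10, 1.66 for IL23A, 1.11 for IL25, 0.091 for TNF, 0.00648 for LTB and -0.44 for MIF. The differences between lines changed sign for MIF under GO (-0.058) and for IL23A (-1.13), IL25 (-0.60) and MIF (0.19) under GONH2, and 0 genes were called for GO.

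Of the 6 genes, GONH2 in THP1 called 4 in 1 fit of all 18 arrays and 5 by adjusted p alone, beside 2. Calls over all 19455 tested probes then rose too, to 5908 and 8180, beside 3866. The controls called 2 with limma-trend, with median scaling, with probes detected on all 18 arrays, with an offset of 50, without background correction or with the authors' values, and 3 by adjusted p alone, beside 1. In that order, calls over all probes were 3399, 1635, 2217 (of 13142 tested), 3002, 3449, 3471 and 5064, beside 2168. The GO difference between lines called 5 with the authors' values, no background correction or adjusted p alone, beside 3, and the GONH2 difference called 2 with an offset of 50, 0 with median scaling and 3 by adjusted p alone, beside 1. Over all probes these settings called 5846, 5839 and 8322 for GO, beside 4761. For GONH2 they called 4352, 2172 and 7040, beside 3615.

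Same-numbered arrays deviated from their groups with correlations of -0.066 to 0.16 over all comparisons, most of them above 0. These values are weak but cannot tell whether the replicate numbers pair the arrays. The reported fits do not pair them. With the replicate number as a block, IL23A in Jurkat GO (-0.73, adjusted p = 0.00682), IL25 in THP1 labelled GO (0.63, adjusted p = 0.0262) and IL23A for GONH2 against GO in Jurkat (0.69, adjusted p = 0.00673) lost their calls, and calls over all probes in Jurkat GONH2 numbered 2 beside 158. Without 1 array, the genes called numbered 2 to 3 for GO in Jurkat, 0 for GONH2 in Jurkat, 1 to 2 for GO in THP1, 1 to 2 for GONH2 in THP1, 2 to 3 for GONH2 against GO in Jurkat, 3 in THP1, 1 for the controls, 3 to 4 for the GO difference between lines and 1 to 2 for the GONH2 difference. In the same order, calls over all probes numbered 3441 to 4089, 2 to 4, 814 to 1073, 2524 to 3065, 3290 to 3931, 3775 to 4515, 1430 to 1887, 4042 to 4551 and 2817 to 3393. Signs changed only in results not called: TNF ran from -0.13 to 0.037 in Jurkat GO, from -0.19 to 0.22 in THP1 labelled GO, from -0.28 to 0.13 in THP1 labelled GONH2 and from -0.28 to 0.14 in the GO difference between lines. IL23A ran from -0.11 to 0.00586, IL25 from -0.084 to 0.11 and LTB from -0.052 to 0.34 in Jurkat GONH2, MIF from -0.027 to 0.036 in THP1 labelled GO, and LTB for GONH2 against GO from -0.25 to 0.067 in Jurkat and from -0.19 to 0.11 in THP1.

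Over every setting, probes called ran from 3441 to 9281 for GO in Jurkat (4890 as reported), 2 to 928 for GONH2 in Jurkat (158), 814 to 4068 for GO in THP1 (1543), 1543 to 8180 for GONH2 in THP1 (3866), 3285 to 9033 and 3775 to 10044 for GONH2 against GO in Jurkat and THP1 (4689 and 5440), 1430 to 5064 for the controls (2168), and 111 to 8322 and 1072 to 7040 for the GO and GONH2 differences between lines (4761 and 3615). Fold sizes varied between settings, for reasons that were not tested. Over the 14 settings IL23A in Jurkat GO ran from -0.92 to -0.36, IL25 there from -1.49 to -0.68 and LTB in THP1 labelled GONH2 from -1.12 to -0.41, each smallest without background correction, while IL10 in THP1 labelled GONH2 ran from 0.82 to 1.36.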
